A study of Mus musculus with 9 samples.

Results

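The 44 genes described here encode heat shock proteins, chaperonin subunits and their partners, and they were taken by symbol from a table of 24421 genes. They comprise 2 heat shock factors, 4 HSP90 proteins, HSP110 and HSP70 proteins of the cytosol, endoplasmic reticulum (ER) and mitochondria, small heat shock proteins, J-domain proteins, HSP90 and BAG co-chaperones, and the 8 subunits of the cytosolic chaperonin CCT. Hspa8, the constitutive cytosolic HSP70, was left out by definition. All 44 symbols had a row in the table, and all 44 passed the filter on low counts.

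RNA was sequenced from D3 mouse embryonic stem (ES) cells in 3 groups of 3 libraries. The LAMP2A+DM-αKG group was made from cells that overexpress LAMP2A, the lysosomal receptor of chaperone-mediated autophagy, and received 4 mM DM-αKG, a cell-permeable ester of α-ketoglutarate, for 72 h. The LAMP2A group overexpressed LAMP2A without DM-αKG, and the VT group stably carried the empty pCDH vector, without DM-αKG, so that no library came from vector cells given DM-αKG. Culture was feeder-free on gelatin-coated plates, with serum and LIF, the cytokine that keeps mouse ES cells undifferentiated. The labels do not say whether a group came from 1 clone or whether its libraries came from separate cultures, so the p-values measure the spread between these libraries, which may be technical.

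Chaperones bind unfolded or partly folded proteins, and many help them to fold in cycles driven by ATP. HSP70 works with J-domain proteins, which deliver substrates and stimulate its ATPase, and with nucleotide exchange factors such as HSP110 and BAG proteins. HSP90 acts later, on kinases and receptors among others, under the control of its own co-chaperones, and CCT folds actin and tubulin in a closed chamber. Heat shock factor 1 (HSF1) activates many of these genes under proteotoxic stress through heat shock elements, and the unfolded protein response activates the ER chaperones through ER stress response elements.

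Counts were scaled to CPM (counts relative to a fixed library size), with each library total multiplied by its TMM factor, and all genes were fitted together with edgeR's quasi-likelihood test. A gene is said to have risen or fallen where its Benjamini-Hochberg adjusted p, taken over all 14513 genes tested, was under 0.05. Levels are given for replicates 1, 2 and 3 in that order. Lamp2 had 95.4 to 99.3 CPM in LAMP2A+DM-αKG, 403 to 407 CPM in LAMP2A and 56.9 to 60.0 CPM in VT. It was thus 4.16-fold lower in LAMP2A+DM-αKG than in LAMP2A (adjusted p = 3.98e-35) and 1.67-fold above VT (adjusted p = 4.55e-19). The words "with DM-αKG" below stand for LAMP2A+DM-αKG against LAMP2A, a comparison in which DM-αKG and the lower Lamp2 level cannot be told apart. The labelled cell type was checked against 8 ES cell markers, whose summed level was 6138.5 to 6182 CPM in LAMP2A+DM-αKG, 1765 to 1769.9 CPM in LAMP2A and 7245 to 7704 CPM in VT, and all 8 fell in LAMP2A against VT. Of 14 fibroblast and feeder markers, 11 were tested, 10 rose in LAMP2A and Thy1 fell (log2 fold change -0.47). Their summed level was 495 to 506 CPM in LAMP2A+DM-αKG, 1369.7 to 1381 CPM in LAMP2A and 409 to 427 CPM in VT. Fap was at 0 in LAMP2A, and Lum and Fap were at 0 in VT. Most of the sum was Vim, with means of 435 CPM in LAMP2A+DM-αKG, 1016 CPM in LAMP2A and 361 CPM in VT. Both marker lists thus differed between the groups compared below, and their part in the results was not tested. By group means, most of the chaperone genes had the order of either list, more of them that of the ES cell list. Hsf2, Hsph1, Hspa4, Hspd1, Hspe1, Dnaja2, Dnajb6, Dnajc7, Stip1, Ahsa1, Ptges3 and St13 had the order of the ES cell list. So did every CCT gene but Cct3. Hsf1, Hspa2, Hspa4l, Hspa13, Hspb8, Hspb11, Dnajb4, Bag2 and Bag3 had that of the fibroblast list. Some of these orders rest on differences that did not pass. Among genes with neither order, Hspa5, Hsp90b1 and Dnajb11 rose in LAMP2A and again with DM-αKG, and Hspb1 and Dnaja1 fell in both. The second rise of Dnajb11 depended on the filter. In bulk RNA, fewer cells of a type and less RNA per cell cannot be told apart.

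Promoter sequences from RefSeq (build GRCm38.p6, the same coordinates as mm10) were matched by symbol for 37 of the 44 genes, as windows from 250 bases before to 50 after each transcription start. Hsf1, Hsp90aa1, Hsp90ab1, Hspa9, Hspa13, St13 and Cct4 had no window and were not searched. A heat shock element of 3 units, GAANNTTCNNGAA or its other strand TTCNNGAANNTTC, was present in windows of 4 of these 37 genes (10.8%), Hspd1, Hspe1, Hsph1 and Dnajb6, and in 0.662% of all 27025 genes with a window. The stretches of 3 of them that lie before a start are shown. Hspd1 and Hspe1, a head-to-head pair, moved in the same directions and share 1 element, read here from either strand (chromosome 1, 55088059 to 55088076). For Hspd1 this element lies before an inner start only. The Hspd1 window at the outer start, where the annotated gene begins, held no 3-unit element. Relative to that outer start the shared element lies inside the gene. Capitals mark the matches, which are 2 overlapping ones in the shared element.
Hspd1, chr1:55088039-55088096, minus strand: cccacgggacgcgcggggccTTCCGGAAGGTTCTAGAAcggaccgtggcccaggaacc
Hspe1, chr1:55088039-55088096, plus strand: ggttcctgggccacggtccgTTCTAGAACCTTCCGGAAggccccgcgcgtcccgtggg
Dnajb6, chr5:29735832-29735884, plus strand: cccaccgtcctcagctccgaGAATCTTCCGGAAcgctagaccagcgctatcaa

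The shorter form with 2 units, GAANNTTC or TTCNNGAA, which lies within every 3-unit match, was found in 15 of the 37 (40.5%) and in 17.0% of all genes with a window. Hspa5 and Hsp90b1, ER chaperone genes that were highest in LAMP2A+DM-αKG, carried the ER stress response element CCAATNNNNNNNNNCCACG (other strand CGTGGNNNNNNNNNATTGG), which 0.137% of genes with a window held. Dnajb11, an ER gene with the same order of group means, had a window without this element. Of the 37, only Hspa5 and Hsp90b1 (5.41%) held the element. Their stretches are shown with the matches in capitals. A match is a description of letters and does not show a bound site.
Hspa5, chr2:34772005-34772063, plus strand: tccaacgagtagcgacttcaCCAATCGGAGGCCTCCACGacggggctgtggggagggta
Hsp90b1, chr10:86705513-86705676, minus strand: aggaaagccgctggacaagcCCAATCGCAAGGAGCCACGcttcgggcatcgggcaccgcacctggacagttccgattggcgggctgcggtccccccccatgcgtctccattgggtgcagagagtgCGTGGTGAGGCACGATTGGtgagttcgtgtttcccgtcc

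The first comparison asked how LAMP2A overexpression changed these genes. Against VT, 29 of the 44 fell (65.9%), 14 rose (31.8%) and 1, Hspa1a, did not pass. Across all genes tested, 42.1% fell, 43.0% rose and 85.1% passed in either direction, so that a gene that passed was the usual case. The median log2 fold change of the 44 was -0.25, against 0.0081 over all genes tested; with genes under 5 CPM left out it was -0.19. With a change of at least 1.5-fold asked for as well, 10 of the 44 fell (22.7%, against 19.2% of all genes) and 7 rose (15.9%, against 27.6%), where 46.9% of all genes passed in either direction. With DM-αKG added to LAMP2A cells, 29 of the 44 rose (65.9%), 11 fell (25.0%) and 4 did not pass, where 41.1% of all genes rose, 42.1% fell and 83.2% passed. The median log2 fold change of this second comparison was 0.16 for the 44 (0.10 with genes under 5 CPM left out) and -0.0012 over all genes, and with at least 1.5-fold 6 rose (13.6%, against 16.4%) and 5 fell (11.4%, against 25.4%), where 41.7% of all genes passed. In the third comparison, LAMP2A+DM-αKG against VT, 19 of the 44 fell (43.2%), 11 rose (25.0%) and 14 did not pass, where 29.3% of all genes fell, 29.3% rose and 58.7% passed. The median was -0.05 for the 44 and 0.0030 over all genes, and the 2 genes past 1.5-fold, Hspb8 and Hspb11, were higher (4.55%, against 8.58% of all genes, with 6.30% lower and 14.9% in either direction). The 3 comparisons share their groups pairwise, so their values for a gene stand side by side and are not independent.

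**Figure D1:**
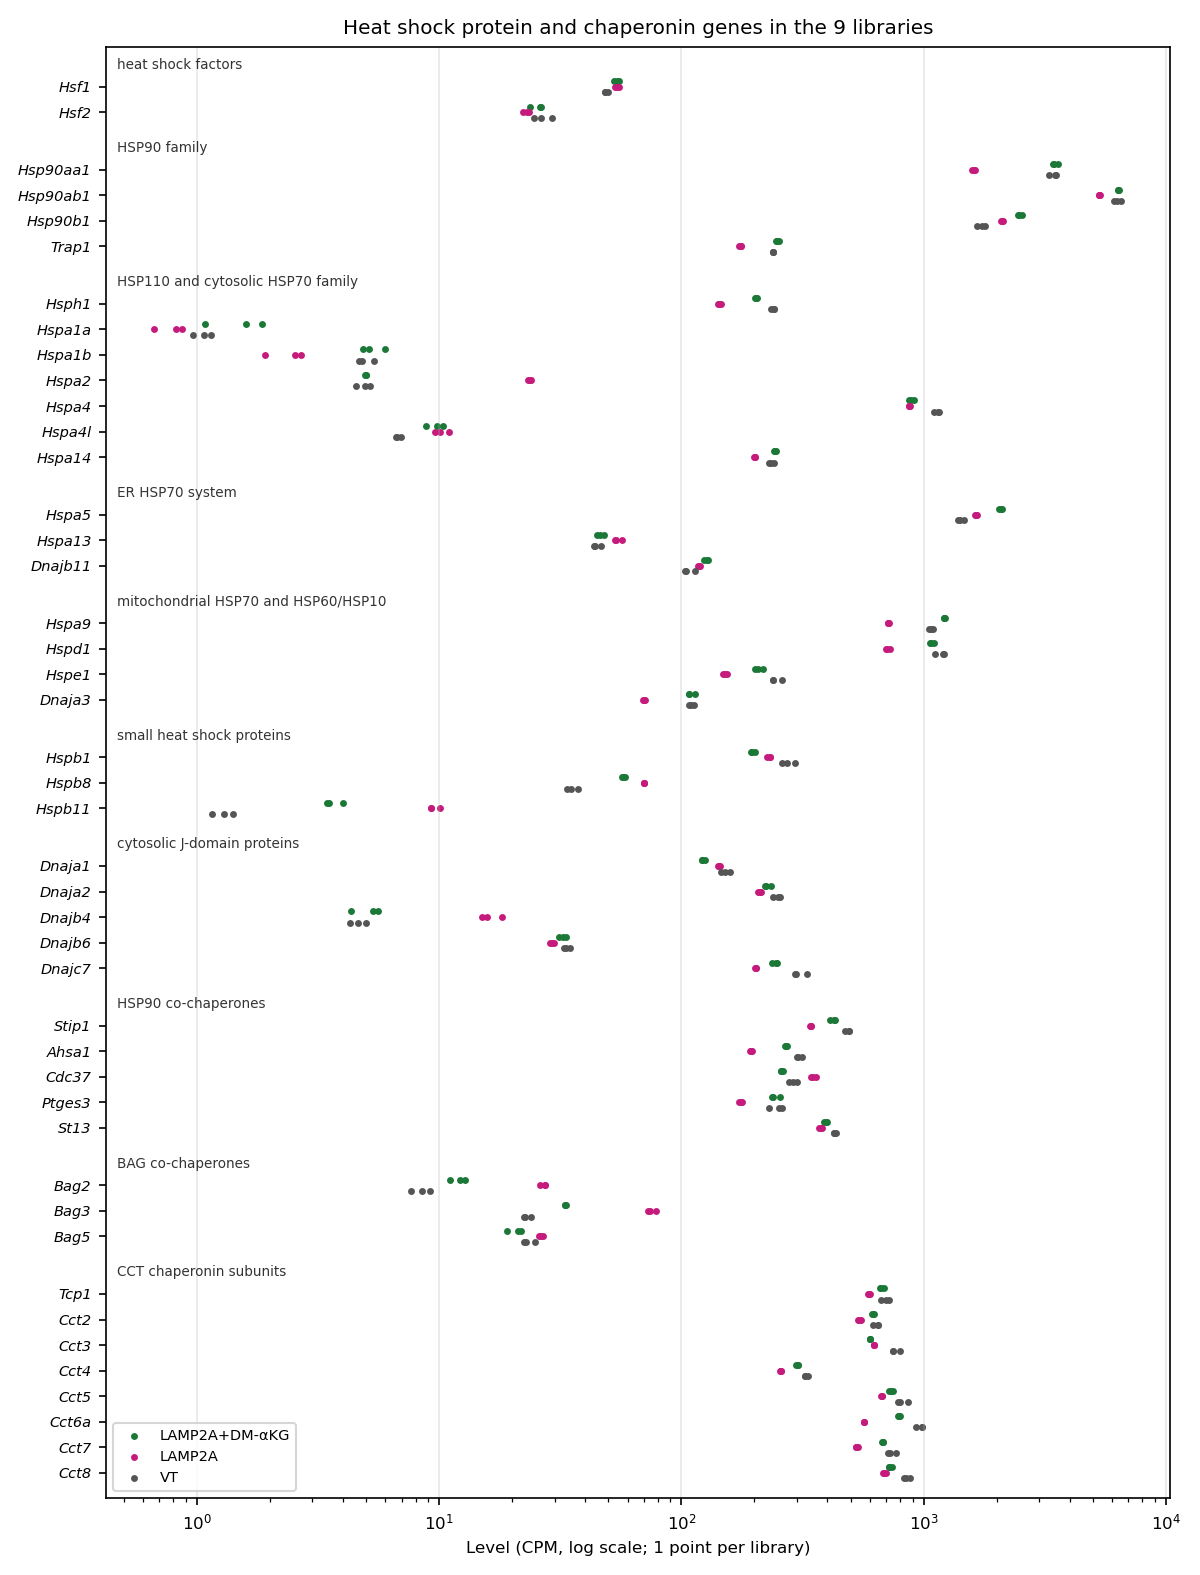
Level in CPM (log scale) of each of the 44 genes, 1 point per library, in LAMP2A+DM-αKG, LAMP2A and VT, with genes ordered by role. Hspa2, Dnajb4, Bag2 and Bag3 are highest in the LAMP2A libraries, while Hsp90aa1, Hspd1, Hspe1, Hspa9 and Dnaja3 are lowest there.

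**Figure D2:**
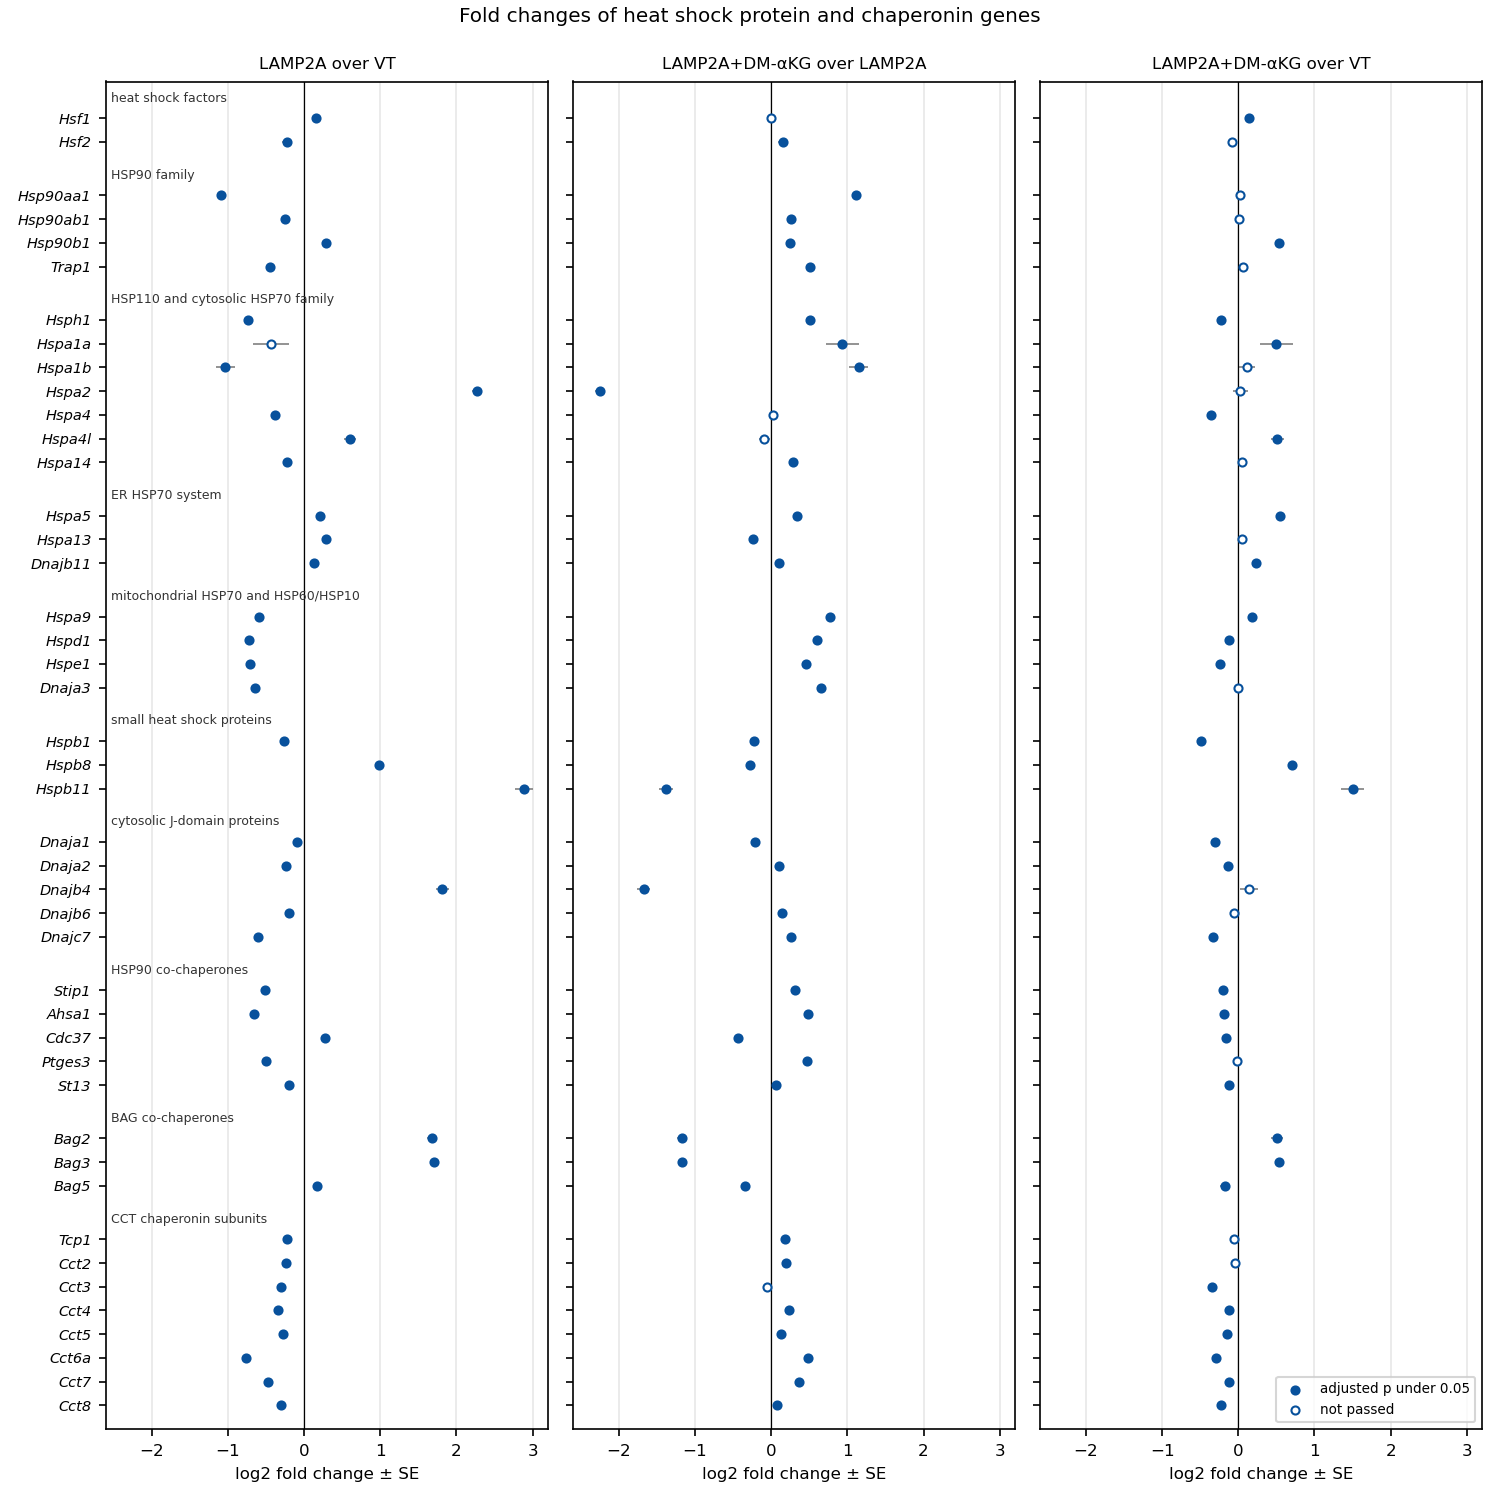
Log2 fold change with its SE for the 44 genes in the 3 comparisons (columns), with filled points where the adjusted p was under 0.05. Most genes lie left of 0 in LAMP2A over VT and right of 0 in LAMP2A+DM-αKG over LAMP2A, and the points of LAMP2A+DM-αKG over VT lie closer to 0, with Hspb11 and Hspb8 farthest to the right.

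Heat shock factors changed little. Hsf1, which encodes the main stress-activated factor, had 55.2, 52.7 and 54.2 CPM in LAMP2A+DM-αKG, 54.3, 53.4 and 55.3 CPM in LAMP2A and 49.7, 48.3 and 48.5 CPM in VT. The VT libraries were lowest, and the other 2 groups overlapped. Against VT, Hsf1 rose by a log2 fold change of 0.15 both in LAMP2A (SE 0.038, adjusted p = 0.000418) and in LAMP2A+DM-αKG (SE 0.039, adjusted p = 0.00165); DM-αKG against LAMP2A gave -0.01 (adjusted p = 0.85). Hsf2, a related factor active in development, had 26.3, 26.2 and 23.8 CPM in LAMP2A+DM-αKG, 23.0, 23.4 and 22.1 CPM in LAMP2A and 24.7, 26.4 and 29.1 CPM in VT. It fell in LAMP2A against VT (log2 fold change -0.23, adjusted p = 0.000403), rose with DM-αKG (0.15, adjusted p = 0.0159) and gave -0.08 in LAMP2A+DM-αKG against VT (adjusted p = 0.24). The rise of Hsf2 with DM-αKG was lost with DESeq2 (adjusted p = 0.0714), among genes with at least 5 CPM (adjusted p = 0.103), and without LAMP2A replicate 3, LAMP2A+DM-αKG replicate 1 or LAMP2A+DM-αKG replicate 2 (adjusted p = 0.0641, 0.0679 and 0.0653).

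In the HSP90 family, 3 of 4 genes fell in LAMP2A, where 42.1% of all genes fell, and the ER member rose. Hsp90aa1, the stress-inducible cytosolic HSP90 (chromosome 12, 110690605 to 110702728), had 3464, 3586 and 3415 CPM in LAMP2A+DM-αKG, 1622.5, 1613 and 1582 CPM in LAMP2A and 3278, 3517 and 3471 CPM in VT. LAMP2A libraries lay apart below all others, and LAMP2A+DM-αKG overlapped VT. The gene fell 2.13-fold in LAMP2A against VT (log2 fold change -1.09, SE 0.030, adjusted p = 5.2e-27) and rose 2.17-fold with DM-αKG (1.12, SE 0.030, adjusted p = 2.79e-27); LAMP2A+DM-αKG against VT gave 0.03 (SE 0.030, adjusted p = 0.445).

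Hsp90ab1, the constitutive cytosolic paralogue, moved in the same directions by less. It averaged 6343 ± 30.1 CPM in LAMP2A+DM-αKG, 5307 ± 16.9 CPM in LAMP2A and 6321 ± 215 CPM in VT (SD, n = 3), which is 1.19-fold lower in LAMP2A than in VT (log2 fold change -0.25, adjusted p = 5.56e-10) and 1.20-fold higher with DM-αKG (adjusted p = 3.98e-10). The ratio of Hsp90aa1 to Hsp90ab1 counts within a library needs no scaling between libraries. It was 0.543, 0.566 and 0.540 in LAMP2A+DM-αKG, 0.305, 0.304 and 0.299 in LAMP2A and 0.520, 0.537 and 0.568 in VT. The mean log2 ratio differed by -0.84 (LAMP2A minus VT) and by 0.86 (LAMP2A+DM-αKG minus LAMP2A), without overlap in either case (two-sided exact permutation p = 0.1 each, the smallest that 3 against 3 libraries allow). LAMP2A+DM-αKG and VT overlapped, with a difference of 0.02 (exact permutation p = 0.6).

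Trap1, the HSP90 of mitochondria, had 246, 248 and 253 CPM in LAMP2A+DM-αKG, 175, 173 and 177 CPM in LAMP2A and 239.7, 238 and 238 CPM in VT. The LAMP2A libraries were lowest, with a log2 fold change of -0.45 against VT (adjusted p = 2.89e-16) and 0.51 with DM-αKG (adjusted p = 8.64e-18). Hsp90b1, the ER HSP90 (GRP94), went the other way in LAMP2A and was higher still with DM-αKG: 2461, 2552 and 2484 CPM in LAMP2A+DM-αKG, 2135, 2098.5 and 2088 CPM in LAMP2A and 1664, 1789.5 and 1743 CPM in VT. The 3 groups did not overlap, and the log2 fold change was 0.28 in LAMP2A against VT (adjusted p = 1.08e-10), 0.25 with DM-αKG (adjusted p = 2.76e-09) and 0.53 in LAMP2A+DM-αKG against VT (SE 0.030, adjusted p = 7.19e-17). Hsp90b1 shares 10.3% of its merged exons with the pseudogene 1810014B01Rik on the opposite strand. Per kb of merged exons, Hsp90ab1 was the highest of the family in every group, and the next place differed: Hsp90aa1 had 887 ± 22.5 CPM per kb and Hsp90b1 619.9 ± 11.8 in LAMP2A+DM-αKG, against 408.5 ± 5.38 and 523 ± 6.07 in LAMP2A and 870.5 ± 32.3 and 429.6 ± 15.8 in VT (SD, n = 3).

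**Figure D3:**
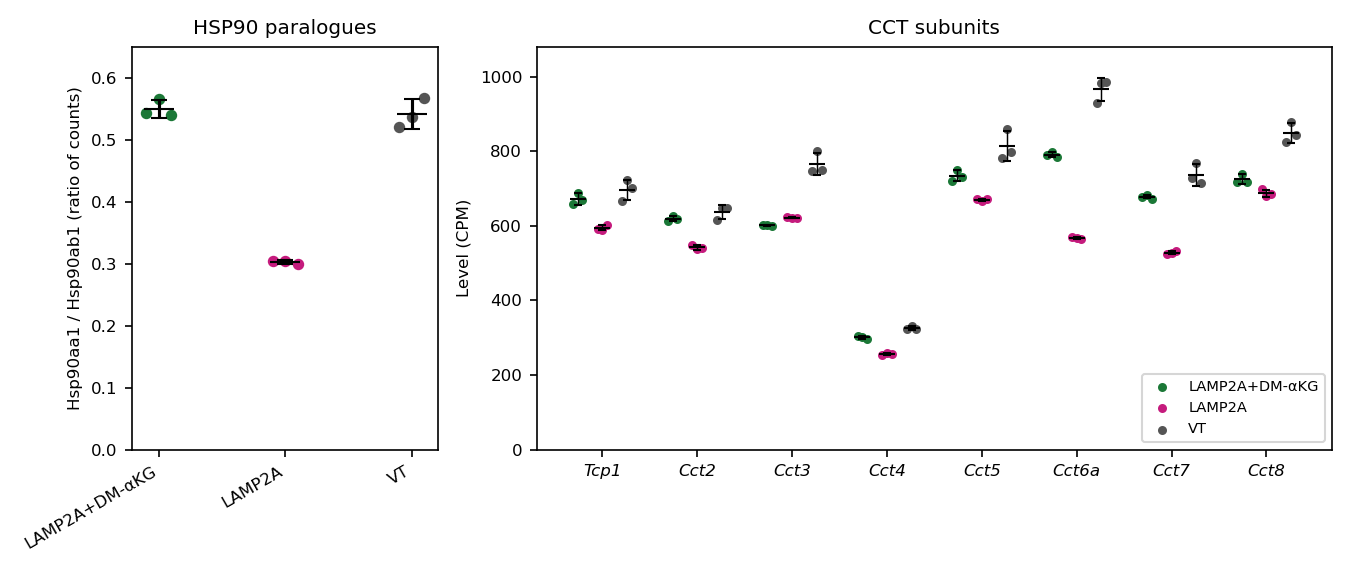
Left, ratio of Hsp90aa1 to Hsp90ab1 counts; right, level in CPM of the 8 CCT subunits, in LAMP2A+DM-αKG, LAMP2A and VT, with 1 point per library and bars for mean ± SD. The ratio is near 0.30 in the LAMP2A libraries and 0.520 or more in the others, and Cct6a shows the widest gap between LAMP2A and VT.

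In the HSP110 and cytosolic HSP70 family of 7 genes, 4 fell, 2 rose and 1 did not pass in LAMP2A against VT. The shares that fell and rose were 57.1% and 28.6%, against 42.1% and 43.0% of all genes. Hsph1, the stress-inducible HSP110, which exchanges nucleotide on HSP70, had 203, 201 and 205.5 CPM in LAMP2A+DM-αKG, 141, 146 and 143 CPM in LAMP2A and 233, 240.2 and 241 CPM in VT. The groups did not overlap. It fell 1.66-fold in LAMP2A (log2 fold change -0.73, SE 0.030, adjusted p = 3.62e-22), rose 1.42-fold with DM-αKG (adjusted p = 3.2e-17) and remained lower than VT in LAMP2A+DM-αKG (-0.23, adjusted p = 2.85e-08). Its relative Hspa4 averaged 888 ± 19.2 CPM in LAMP2A+DM-αKG, 873 ± 5.86 CPM in LAMP2A and 1135 ± 29.0 CPM in VT. Hspa4 thus fell in both LAMP2A groups against VT (log2 fold changes -0.35 in LAMP2A+DM-αKG and -0.38 in LAMP2A), and DM-αKG against LAMP2A gave 0.02 (adjusted p = 0.438). Hspa4l, the HSP110 relative best known from testis, was at 9.80, 10.4 and 8.85 CPM in LAMP2A+DM-αKG, 11.0, 10.1 and 9.63 CPM in LAMP2A and 6.99, 6.69 and 6.62 CPM in VT. It was higher than VT in both (log2 fold changes 0.51, adjusted p = 3.98e-06, and 0.60, adjusted p = 2.94e-08).

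Hspa2, an HSP70 known for its role in male germ cells, showed the widest swing of the family. It had 5.01, 4.93 and 4.99 CPM in LAMP2A+DM-αKG, 24.0, 23.3 and 23.7 CPM in LAMP2A and 4.53, 4.95 and 5.17 CPM in VT. It rose 4.83-fold in LAMP2A (log2 fold change 2.27, SE 0.069, adjusted p = 7.35e-26) and fell 4.75-fold with DM-αKG (-2.25, SE 0.069, adjusted p = 8.97e-26), and LAMP2A+DM-αKG overlapped VT. Hspa1a and Hspa1b, the heat-inducible HSP70 pair, were scarce. Hspa1b had 4.84, 5.12 and 5.99 CPM in LAMP2A+DM-αKG, 2.71, 2.55 and 1.90 CPM in LAMP2A and 5.39, 4.81 and 4.69 CPM in VT, a 2.05-fold fall in LAMP2A (adjusted p = 4.43e-09) and a 2.22-fold rise with DM-αKG (adjusted p = 2.75e-10). Hspa1a had 1.85, 1.08 and 1.60 CPM in LAMP2A+DM-αKG, 0.669, 0.870 and 0.822 CPM in LAMP2A and 1.07, 1.15 and 0.967 CPM in VT, from 22 to 48 counts per library. LAMP2A against VT gave a log2 fold change of -0.43 for Hspa1a (SE 0.238, adjusted p = 0.0883), and it rose with DM-αKG (0.94, SE 0.217, adjusted p = 0.000207). Against VT it rose in LAMP2A+DM-αKG (0.50, adjusted p = 0.0407), a call that was lost with DESeq2 (adjusted p = 0.165) and without VT replicate 1 or 3 or LAMP2A+DM-αKG replicate 1 or 3 (adjusted p = 0.0727, 0.121, 0.203 and 0.126). These paralogues share 58.8% of the 50-base windows of the Hspa1a transcript and 62.3% of those of Hspa1b, so reads can be lost or split between them, and Hspa1a also shares 19.0% of its merged exons with Gm20481 on the opposite strand. Hspa14, a partner of ribosome-bound J-domain proteins, averaged 244 ± 2.09 CPM in LAMP2A+DM-αKG, 201 ± 1.05 CPM in LAMP2A and 235 ± 5.35 CPM in VT (log2 fold change -0.23 in LAMP2A against VT and 0.28 with DM-αKG).

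The ER HSP70 system rose in LAMP2A in 3 of 3 genes, where 43.0% of all genes rose. Hspa5 (BiP), the main ER HSP70 and a regulator of the unfolded protein response, had 2045, 2115 and 2083 CPM in LAMP2A+DM-αKG, 1653, 1644 and 1627 CPM in LAMP2A and 1385, 1471.5 and 1407 CPM in VT. The 3 groups formed 3 separate steps, as for Hsp90b1. Hspa5 rose 1.15-fold in LAMP2A (log2 fold change 0.21, SE 0.029, adjusted p = 5.62e-08), 1.27-fold more with DM-αKG (0.34, adjusted p = 5.74e-13) and stood 1.46-fold above VT in LAMP2A+DM-αKG (0.55, adjusted p = 1.27e-17). Dnajb11 (ERdj3), the J-domain partner of BiP, followed the same order, with 129, 124 and 127 CPM in LAMP2A+DM-αKG, 118, 117 and 119 CPM in LAMP2A and 105, 114 and 104 CPM in VT (log2 fold change 0.13, adjusted p = 0.000771 in LAMP2A against VT, 0.11, adjusted p = 0.00501 with DM-αKG, and 0.24, adjusted p = 4.52e-07 in LAMP2A+DM-αKG against VT). The rise of Dnajb11 with DM-αKG was lost among genes with at least 5 CPM (adjusted p = 0.121). Hspa13, an HSP70-like protein of microsomes, had 45.1, 47.9 and 46.2 CPM in LAMP2A+DM-αKG, 53.8, 56.8 and 53.1 CPM in LAMP2A and 43.6, 44.1 and 46.6 CPM in VT. It rose in LAMP2A (0.28, adjusted p = 1.1e-07) and fell with DM-αKG (-0.24, adjusted p = 3.24e-06).

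Mitochondrial chaperones fell together in LAMP2A. All 4 listed genes fell against VT, by 1.51-fold to 1.65-fold, and all 4 rose with DM-αKG, by 1.38-fold to 1.71-fold. Of all genes tested, 42.1% fell in LAMP2A against VT and 41.1% rose with DM-αKG. Hspd1, the HSP60 chaperonin, had 1059, 1102 and 1075 CPM in LAMP2A+DM-αKG, 727, 708 and 699 CPM in LAMP2A and 1112, 1208 and 1201 CPM in VT, a 1.65-fold fall in LAMP2A (log2 fold change -0.72, SE 0.032, adjusted p = 3.75e-21) and a 1.52-fold rise with DM-αKG (adjusted p = 1.01e-18). Its lid Hspe1, HSP10, had 217, 201 and 206 CPM in LAMP2A+DM-αKG, 151, 154 and 149 CPM in LAMP2A and 239, 261 and 239.7 CPM in VT. It fell 1.63-fold (-0.70, SE 0.034, adjusted p = 8.77e-20) and rose 1.38-fold with DM-αKG (adjusted p = 2.12e-14). The fall of the head-to-head pair in LAMP2A thus differed by less than 1 SE. With DM-αKG the log2 fold changes lay further apart, at 0.60 (SE 0.032) for Hspd1 and 0.46 (SE 0.034) for Hspe1. Both genes stayed below VT in LAMP2A+DM-αKG, by unequal amounts (log2 fold changes -0.12 and -0.24). Their annotated exons overlap on opposite strands by 112 bases, 4.24% of the merged exons of Hspd1 and 7.60% of those of Hspe1.

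Hspa9, the mitochondrial HSP70 (mortalin), had 1224, 1219 and 1213 CPM in LAMP2A+DM-αKG, 718, 710.1 and 709 CPM in LAMP2A and 1055, 1095 and 1075 CPM in VT. It fell 1.51-fold in LAMP2A (adjusted p = 3.56e-20) and rose 1.71-fold with DM-αKG (adjusted p = 1.61e-23), to above VT (log2 fold change 0.18, adjusted p = 1.13e-06). Dnaja3, the mitochondrial J-domain protein, had 108, 108 and 114 CPM in LAMP2A+DM-αKG, 70.3, 69.6 and 71.1 CPM in LAMP2A and 108, 112 and 109.8 CPM in VT, a 1.56-fold fall in LAMP2A (adjusted p = 1.61e-18) and a 1.57-fold rise with DM-αKG (adjusted p = 1.68e-18). Across the 4 genes no LAMP2A library reached the level of any other library. This was not particular to them. It held for many others of the 44 genes, among them Hsp90aa1, Hsp90ab1, Trap1, Hsph1, Stip1, Ahsa1, Ptges3 and every CCT gene but Cct3. It also held for Hspa1a, which did not pass in LAMP2A against VT. How many of all genes tested were separated in this way was not counted, and 85.1% of them passed in LAMP2A against VT.

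Of all genes tested, 27.6% rose by at least 1.5-fold in LAMP2A against VT, as did 15.9% of the 44 genes. The small heat shock protein and BAG lists held 4 of the 7 among the 44 that did so. These 4 were Hspb8, Bag2, Bag3 and Hspb11, the last of which is a small heat shock protein by name only. Hspb8, which acts with BAG3 in the disposal of misfolded and mechanically damaged proteins, had 58.8, 57.5 and 56.7 CPM in LAMP2A+DM-αKG, 70.0, 70.3 and 69.9 CPM in LAMP2A and 35.0, 37.5 and 33.7 CPM in VT. It rose 1.98-fold in LAMP2A (log2 fold change 0.99, SE 0.040, adjusted p = 5.95e-22) and fell 1.22-fold with DM-αKG (-0.28, adjusted p = 2.45e-08), so that it stood 1.63-fold above VT in LAMP2A+DM-αKG (adjusted p = 3.57e-16). Bag3, the nucleotide exchange factor that bridges HSP70 and HSPB8, had 33.1, 33.4 and 33.2 CPM in LAMP2A+DM-αKG, 74.5, 72.9 and 78.4 CPM in LAMP2A and 24.0, 22.7 and 22.4 CPM in VT. The groups were separate. Bag3 rose 3.27-fold in LAMP2A (log2 fold change 1.71, SE 0.044, adjusted p = 3.61e-28), fell 2.26-fold with DM-αKG (-1.18, adjusted p = 4.83e-24) and remained 1.44-fold above VT (adjusted p = 3.13e-11).

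Bag2, which inhibits the chaperone-linked ubiquitin ligase CHIP, ran in parallel, with 12.8, 12.2 and 11.1 CPM in LAMP2A+DM-αKG, 26.1, 27.3 and 27.4 CPM in LAMP2A and 9.17, 8.50 and 7.66 CPM in VT. It rose 3.19-fold in LAMP2A (adjusted p = 1.48e-22) and fell 2.25-fold with DM-αKG (adjusted p = 7.22e-19). Bag5, a BAG protein with several BAG domains, changed less, with 19.1, 21.8 and 21.1 CPM in LAMP2A+DM-αKG, 25.9, 26.3 and 26.9 CPM in LAMP2A and 23.0, 25.0 and 22.4 CPM in VT. Its log2 fold change was 0.17 in LAMP2A against VT (adjusted p = 0.00434) and -0.35 with DM-αKG (adjusted p = 6.18e-07). Against VT it fell in LAMP2A+DM-αKG (-0.18, adjusted p = 0.00818), a call lost without VT replicate 2 (adjusted p = 0.0727) or LAMP2A+DM-αKG replicate 1 (adjusted p = 0.0799).

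Hspb11, which despite its name is a subunit of the intraflagellar transport complex of cilia (IFT25), had 3.45, 4.01 and 3.53 CPM in LAMP2A+DM-αKG, 10.1, 9.29 and 9.26 CPM in LAMP2A and 1.15, 1.41 and 1.30 CPM in VT, the last from 28 to 38 counts per library. The groups were separate, with a 7.39-fold rise in LAMP2A (log2 fold change 2.89, SE 0.118, adjusted p = 5.53e-22), a 2.61-fold fall with DM-αKG (adjusted p = 7.92e-16) and 2.83-fold more than VT in LAMP2A+DM-αKG (adjusted p = 1.98e-10). Hspb1 (HSP25), the abundant small heat shock protein that binds actin, went the other way, with 193, 201 and 196 CPM in LAMP2A+DM-αKG, 227, 232 and 232 CPM in LAMP2A and 274, 296 and 259 CPM in VT. It fell in LAMP2A (-0.26, adjusted p = 1.38e-08) and fell again with DM-αKG (-0.22, adjusted p = 4.89e-07), to -0.49 against VT (adjusted p = 4.79e-14).

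Among the 5 cytosolic J-domain proteins, 4 fell and Dnajb4 rose in LAMP2A, where 42.1% of all genes fell. Dnajb4 (HLJ1), a heat-inducible partner of HSP70, had 4.33, 5.31 and 5.59 CPM in LAMP2A+DM-αKG, 18.1, 15.0 and 15.8 CPM in LAMP2A and 4.65, 4.99 and 4.28 CPM in VT. Its LAMP2A libraries stood far above the rest, 3.52-fold over VT (log2 fold change 1.82, SE 0.090, adjusted p = 1.58e-19), and it fell 3.19-fold with DM-αKG (adjusted p = 8.98e-19). Dnajc7, which carries clients between HSP70 and HSP90, had 236, 245 and 248 CPM in LAMP2A+DM-αKG, 203, 201 and 203 CPM in LAMP2A and 295, 329 and 296 CPM in VT. It fell 1.52-fold in LAMP2A (adjusted p = 6.92e-18) and rose 1.20-fold with DM-αKG (adjusted p = 1.06e-08). Dnaja2, a general partner of HSP70, fell by less (-0.24 in LAMP2A against VT, adjusted p = 7.6e-09) and rose with DM-αKG (0.10, adjusted p = 0.00255). That rise was lost among genes with at least 5 CPM (adjusted p = 0.0905). Dnaja1 had log2 fold changes of -0.09 in LAMP2A against VT and -0.21 with DM-αKG, and Dnajb6, a suppressor of aggregation, had -0.20 and 0.15.

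Most HSP90 co-chaperones moved in the directions of cytosolic HSP90 in these 2 comparisons, with 4 of 5 lower in LAMP2A and 4 of 5 higher with DM-αKG. Of all genes tested, 42.1% fell in LAMP2A and 41.1% rose with DM-αKG. In LAMP2A+DM-αKG against VT, 4 of 5 were lower (Stip1, Ahsa1, Cdc37 and St13), where 29.3% of all genes fell. Hsp90aa1 and Hsp90ab1 did not pass there. Ahsa1, the activator of the HSP90 ATPase, had 273, 269 and 269 CPM in LAMP2A+DM-αKG, 193, 195 and 193 CPM in LAMP2A and 303, 316 and 301 CPM in VT. It fell 1.58-fold in LAMP2A (log2 fold change -0.66, SE 0.029, adjusted p = 4e-21) and rose 1.40-fold with DM-αKG (adjusted p = 6.02e-17). Stip1 (HOP), which links HSP70 to HSP90, averaged 422 ± 9.86 CPM in LAMP2A+DM-αKG, 341 ± 2.67 CPM in LAMP2A and 486 ± 12.3 CPM in VT (1.42-fold lower in LAMP2A than in VT, adjusted p = 1.32e-17). Ptges3 (p23), which holds HSP90 in its closed state, averaged 244 ± 9.40 CPM in LAMP2A+DM-αKG, 176 ± 2.52 CPM in LAMP2A and 248 ± 15.5 CPM in VT (1.41-fold lower in LAMP2A than in VT, adjusted p = 3.84e-14). St13 (HIP), an HSP70 cofactor, had log2 fold changes of -0.19 in LAMP2A against VT and 0.07 with DM-αKG. Cdc37, the kinase-specific co-chaperone, was the exception, with 264, 259 and 257 CPM in LAMP2A+DM-αKG, 343, 349 and 359 CPM in LAMP2A and 289.9, 299.7 and 278 CPM in VT. It rose in LAMP2A (0.28, SE 0.030, adjusted p = 3.05e-10), fell with DM-αKG (-0.43, adjusted p = 4.66e-15) and was below VT in LAMP2A+DM-αKG (-0.15, adjusted p = 5.82e-05).

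All 8 CCT subunit genes fell in LAMP2A against VT, by unequal amounts, where 42.1% of all genes tested fell. Only Cct6a fell by at least 1.5-fold (12.5%, against 19.2% of all genes). The log2 fold changes ran from -0.77 to -0.23, with a median of -0.30. Cct6a, the zeta subunit, had 791, 799 and 784 CPM in LAMP2A+DM-αKG, 569, 568 and 565 CPM in LAMP2A and 929.5, 984 and 985 CPM in VT, a 1.70-fold fall (log2 fold change -0.77, SE 0.029, adjusted p = 6.85e-23). Cct7 (eta) had 678, 682 and 673 CPM in LAMP2A+DM-αKG, 524, 527 and 534 CPM in LAMP2A and 728, 769.8 and 714 CPM in VT, a 1.40-fold fall (-0.48, adjusted p = 1.21e-16). Cct4 (delta) followed with 303, 303 and 297 CPM in LAMP2A+DM-αKG, 254, 259 and 257 CPM in LAMP2A and 323, 332 and 324 CPM in VT (-0.35, adjusted p = 1.39e-13). Tcp1 (alpha), Cct2 (beta), Cct3 (gamma), Cct5 (epsilon) and Cct8 (theta) had log2 fold changes of -0.30 to -0.23.

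With DM-αKG, 7 of the 8 CCT genes rose, from 0.08 for Cct8 to 0.48 for Cct6a, and Cct3 gave -0.05 (adjusted p = 0.117). Of all genes tested, 41.1% rose in this comparison. With genes under 5 CPM left out, Cct8 gave 0.028. Against VT, 6 of 8 remained lower in LAMP2A+DM-αKG, where 29.3% of all genes fell. Among them were Cct3 at -0.35 and Cct6a at -0.29, while Tcp1 and Cct2 gave -0.05 (adjusted p = 0.147) and -0.04 (adjusted p = 0.216). The summed level of the 8 genes was 5122 ± 61.2 CPM in LAMP2A+DM-αKG, 4469.5 ± 17.6 CPM in LAMP2A and 5793 ± 188 CPM in VT (SD, n = 3). Cct6a shares 12.5% of its merged exons with Psph and Tcp1 shares 11.4% with Acat3, both on the opposite strand, and whether the counting used strand is not stated in the notes used here.

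Other genes of protein folding were taken from 6 lists of 103 genes, of which 98 passed the filter. In LAMP2A against VT 35 rose (35.7%, against 43.0% of all genes) and 55 fell (56.1%, against 42.1%). With DM-αKG 56 rose (57.1%, against 41.1%) and 30 fell (30.6%, against 42.1%), and in LAMP2A+DM-αKG against VT 39 rose (39.8%, against 29.3%) and 31 fell (31.6%, against 29.3%). Mitochondrial folding and proteolysis genes fell in 10 of 10 in LAMP2A (median log2 fold change -0.48) and rose in 10 of 10 with DM-αKG (median 0.45), in parallel with Hspd1, Hspe1, Hspa9 and Dnaja3. Grpel1, the exchange factor of mortalin, averaged 109 ± 3.01 CPM in LAMP2A+DM-αKG, 85.5 ± 1.01 CPM in LAMP2A and 131 ± 3.48 CPM in VT, and Clpp, a protease subunit of the matrix, 69.6 ± 1.88, 55.6 ± 1.86 and 82.6 ± 3.65 CPM in the same order. Further HSP90 co-chaperones fell in 15 of 18 in LAMP2A (median -0.61) and rose in 15 of 18 with DM-αKG (median 0.41). Fkbp5, an HSP90-binding immunophilin of steroid receptors, fell 2.09-fold in LAMP2A (221 ± 0.928 CPM in LAMP2A+DM-αKG, 111 ± 1.59 CPM in LAMP2A and 233 ± 5.31 CPM in VT), and Cdc37l1, a relative of Cdc37, fell 2.08-fold. Prefoldin and CCT helper genes, which hand actin and tubulin chains to CCT or modulate it, fell in 8 of 10 in LAMP2A (median -0.29), led by the prefoldin subunits Pfdn4 (-0.76) and Vbp1 (-0.55), and 6 of 10 rose with DM-αKG.

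Of the genes of ER folding and the unfolded protein response, 16 of 18 rose in LAMP2A+DM-αKG against VT (median 0.42), where 29.3% of all genes rose; Xbp1 fell (-0.30) and Atf6 gave 0.03 (adjusted p = 0.576). In LAMP2A against VT 10 of 18 rose and 5 fell (median 0.20), where 43.0% of all genes rose and 42.1% fell. Serpinh1 (HSP47), the collagen chaperone, had the largest change of the list, with 202 ± 4.92 CPM in LAMP2A+DM-αKG, 1623 ± 18.4 CPM in LAMP2A and 176 ± 3.17 CPM in VT, a 9.23-fold rise in LAMP2A and an 8.03-fold fall with DM-αKG. P4hb, protein disulfide isomerase and a subunit of collagen prolyl hydroxylase, averaged 939 ± 14.6, 1155 ± 4.69 and 698 ± 16.0 CPM in the same order. J-domain proteins outside the 44 were divided in LAMP2A, with 14 higher and 10 lower of 27 (51.9% and 37.0%), shares near those of all genes. Dnajc21, a J-domain protein of ribosome assembly, fell 2.29-fold and Sec63, of the ER translocon, rose 2.02-fold. Dnajb1, the classical heat-inducible HSP40, named here after its values were seen, had 69.7 ± 1.498 CPM in LAMP2A+DM-αKG, 69.7 ± 1.15 CPM in LAMP2A and 70.6 ± 1.74 CPM in VT and did not pass in any of the 3 comparisons (lowest adjusted p = 0.634, in LAMP2A against VT).

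Of 20 further HSP70, small HSP, BAG and HSF genes, 15 were tested, and 7 rose and 7 fell in LAMP2A (46.7% each), again near the shares of all genes. Cryab, the small heat shock protein of muscle and lens, rose 4.67-fold in LAMP2A (10.4 ± 0.548 CPM in LAMP2A+DM-αKG, 44.8 ± 1.51 CPM in LAMP2A and 9.56 ± 0.606 CPM in VT) and fell 4.29-fold with DM-αKG. Hspb2, its head-to-head neighbour, rose 2.28-fold and fell 2.28-fold. Hspb6, a small heat shock protein of muscle named here after its values were seen, went the other way, falling 1.61-fold in LAMP2A (adjusted p = 1.88e-07) and rising 1.79-fold with DM-αKG (adjusted p = 2.02e-09).

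**Figure D4:**
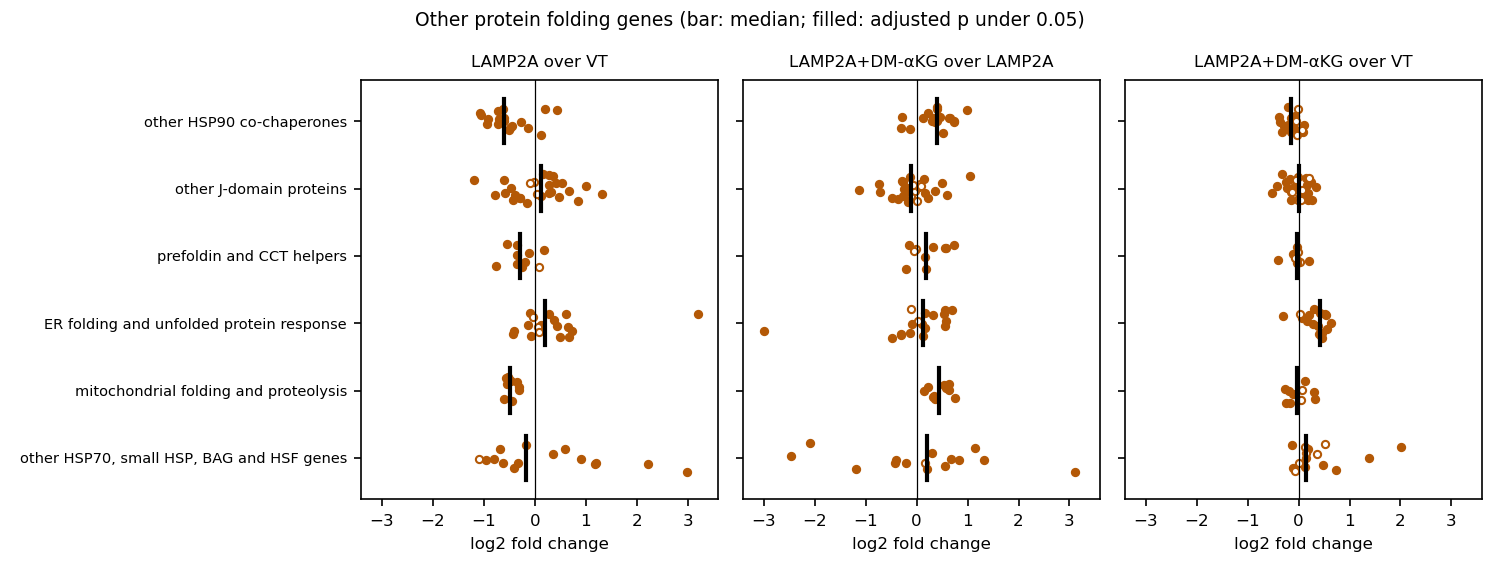
Log2 fold change of the 98 other protein folding genes by list in the 3 comparisons, 1 point per gene, with bars at the list medians and filled points where the adjusted p was under 0.05. The mitochondrial list lies wholly below 0 in LAMP2A over VT and above 0 in LAMP2A+DM-αKG over LAMP2A, and the ER list has its highest median, 0.42, in LAMP2A+DM-αKG over VT.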

How the data were processed

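Per the labels' protocols, 9 libraries were made with a stranded Illumina TruSeq mRNA kit. The authors deposited unnormalized read counts by gene symbol. The submitters' processing notes name STAR 2.7.1, HTSeq 0.11.2, DESeq2 and mm10. Annotation and strand setting: not given in the sources used here. The authors' comparison tables were left out. Totals ran from 23636074 to 32809875 counts per library. Libraries of each group differed by more than sampling noise (chi-square over degrees of freedom 1.19 to 5.93), so none were merged as 1 library; this does not show that they came from separate cultures.

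The tests used edgeR 4.0.16 under R 4.3.3: filterByExpr (14513 of 24421 genes kept), TMM factors, estimateDisp and glmQLFit with robust estimation, group means of all 9 libraries in 1 model, glmQLFTest, and Benjamini-Hochberg adjustment over all genes tested. The common coefficient of variation between libraries beyond counting noise was 2.74%, which lets small changes pass. SE is |log2 fold change| divided by the root of F. Levels per kb used merged GENCODE M21 exons. Alternatives were DESeq2 1.42.0, other scalings and filters, a replicate block, the 6 libraries compared alone, and leaving out each library.

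The members and gene lists were chosen with earlier results of these data known. By rule, values per library were due for Hsf1, the up to 3 genes of each role list that changed most in LAMP2A against VT (mean of 5 CPM or more), genes past 2-fold in any comparison, and the Hsp90aa1/Hsp90ab1 and Hspa1a/Hspa1b pairs; further members were described after their values were seen. Of other folding genes, each list gave the 2 that changed most among those that passed in LAMP2A against VT at 5 CPM or more.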

Additional observations from a re-analysis of the deposited data

How the results depend on the processing

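The number of the 44 genes called ranged over the alternatives from 40 to 43 in LAMP2A against VT, 32 to 41 in LAMP2A+DM-αKG against LAMP2A and 28 to 32 in LAMP2A+DM-αKG against VT. The number that rose with DM-αKG ran from 21 to 29, so the 29 given above is the highest. Keeping genes of 5 CPM or more leaves out Hspa1a, Hspa1b and Hspb11 and moves the median of all genes by 0.0563 in LAMP2A against VT and -0.0488 in LAMP2A+DM-αKG against LAMP2A. The count of the 44 lower by at least 1.5-fold in LAMP2A against VT was then 7 in place of 10 (Hspa1b left out, Hspa9 at 1.45-fold, Dnajc7 at 1.46-fold). The count higher by at least 1.5-fold was 3 in place of 6 in LAMP2A+DM-αKG against LAMP2A (Hspa1a and Hspa1b left out, Hspd1 at 1.47-fold). In LAMP2A+DM-αKG against VT it was 1 in place of 2 (Hspb11 left out). The rises with DM-αKG that were lost included those of Dnajb11 and Dnaja2 (adjusted p = 0.121 and 0.0905). The log2 fold changes with DM-αKG were then 0.028 for Cct8 and 0.018 for St13. Leaving out 1 library at a time, the log2 Hsp90aa1 to Hsp90ab1 ratio of LAMP2A+DM-αKG minus VT ran from -0.00626 to 0.0567, negative without VT replicate 1. Log2 fold changes near 0 that did not pass also changed sign. In LAMP2A+DM-αKG against LAMP2A that of Hsf1 was 0.0149 with upper-quartile factors and ran from -0.0204 to 0.0125 with 1 library left out. In LAMP2A+DM-αKG against VT the ranges were -0.0022 to 0.0497 for Hsp90aa1, -0.0183 to 0.0328 for Hsp90ab1, -0.0247 to 0.0663 for Hspa2, -0.0273 to 0.0209 for Dnaja3, -0.0710 to 0.0134 for Ptges3, -0.0576 to 0.0082 for Pfdn4, -0.0063 to 0.0580 for Vbp1 and -0.104 to 0.0819 for Hspb2. The cause was not tested. Replicate numbers did not pair the samples (correlations of deviations -0.027 to 0.012); with the replicate block 43, 40 and 30 of the 44 genes passed in the 3 comparisons, as without it, and the mean log2 ratio was -0.84, 0.86 and 0.02 (smallest sign-flip p 0.25).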
